A study of Mus musculus with 6 samples.

Results

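The 2 libraries of vehicle-treated PS19 mice were compared with the 2 libraries of vehicle-treated control mice, that is 4 of the 6 libraries of the series, chosen by their titles. The file headers give control 2, tau 1 and tau 2 the numbers 3, 2 and 3, and the numbers used here are those of the titles. RNA was measured by sequencing of total RNA from PFC tissue (frontal cortex) of mice aged 6 months, as bulk lysate. Control mice are labelled C57BL/6 x C3H, and PS19 mice carry in addition a transgene for human tau with the P301S change. The labels call the 2 libraries of each group biological duplicates and do not name the animals behind them, so the p-values below measure only the spread between these libraries. The groups are called control and tau. For the library labelled control 1 the gene counts summed to 24525020, for control 2 to 25264641, for tau 1 to 25685236 and for tau 2 to 17690811, over 54429 gene symbols that the 4 tables share.

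Tau is a microtubule-binding protein of neurons, and the P301S form, found in families with frontotemporal dementia, detaches from microtubules and aggregates. In PS19 mice the transgene is driven by the promoter of the prion protein gene Prnp, so it is active in many brain cells, and the animals are known for synapse loss, gliosis and later neuron loss. Bulk RNA mixes all cells of the piece of tissue: fewer cells of a type and less RNA per cell cannot be told apart.

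Levels are given as CPM, the gene count scaled to a common library size and composition, and 4 values for a gene always stand in the order library labelled control 1, control 2, tau 1, tau 2. Log2 fold changes are tau minus control with their standard error (SE). The 20030 genes with enough counts entered the quasi-likelihood test of edgeR, and 0 passed at a Benjamini-Hochberg adjusted p under 0.05, which is 0% in each direction. The smallest adjusted p was 0.138. At an unadjusted p under 0.05 the test gave 751 genes higher in tau (3.75%) and 1024 lower (5.11%). The other tools differed: DESeq2 called 33 genes, 11 higher (0.0774% of the 14205 with an adjusted p) and 22 lower (0.155%), the exact test of edgeR called 34, 6 higher (0.03%) and 28 lower (0.14%), limma-voom called 0, and 20 genes were shared by DESeq2 and the exact test. Without control 2 the quasi-likelihood test called 99 genes, and without the library labelled control 1 it called 0. Levels are therefore given per library throughout, and a gene is called higher or lower only as a statement about these 4 libraries.

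The libraries of a group differed from each other nearly as much as the groups did. Over 14616 genes with an average log2 CPM of at least 1, the median absolute difference was 0.15 (log2) between the control libraries and 0.14 between the tau libraries. Between a control and a tau library it was 0.15 for the library labelled control 1 and tau 1, 0.16 for the library labelled control 1 and tau 2, 0.17 for control 2 and tau 1, and 0.17 for control 2 and tau 2. Genes that differed more than 2-fold numbered 217 within control and 229 within tau, against 175 to 332 in the 4 pairs across groups. The pair of control 2 and tau 1 had fewer such genes than either pair within a group.

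**Figure D1:**
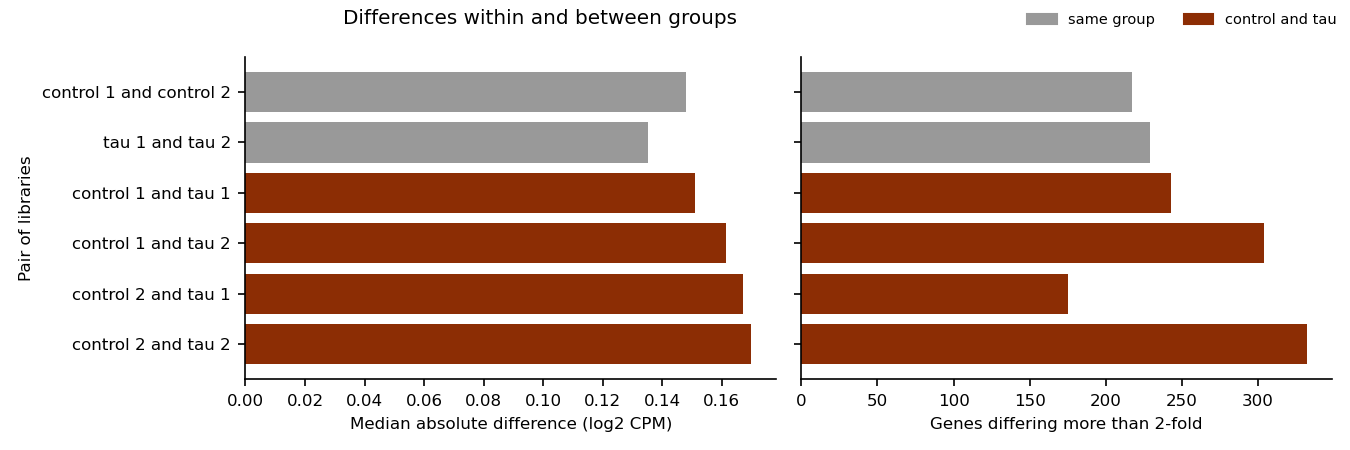
Median absolute difference in log2 CPM (left) and number of genes differing more than 2-fold (right) for each pair of libraries, over 14616 genes. Grey bars are pairs within a group and brown bars pairs of a control and a tau library; the medians of the brown bars (0.15 to 0.17) lie just above those of the grey ones (0.14 and 0.15).

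Several label checks and region markers set single libraries apart. Prnp had 1668, 882, 1697 and 1482 CPM, so the library labelled control 1 lay at the level of the tau libraries, against its label, and each direction below that rests on the control group includes it. Prnp shares 6.15% of its 50-base words with other genes. The endogenous tau gene Mapt had 581, 453.5, 578 and 594 CPM, so here too the library labelled control 1 lay with the tau libraries. The log2 fold change of Mapt was 0.18, and it became 0.37 without that library and 0.01 without control 2. Reads of the human transgene could add to Mapt, which was not tested. Xist, the RNA of the silenced X chromosome in females, had 0.199, 320.0, 187 and 237 CPM, and the Y-linked gene Ddx3y 96.0, 0.316, 0.394 and 0.115 CPM. The library labelled control 1 was the only male one by these transcripts, so the comparison without it is also the comparison within females.

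Markers of cells from outside the frontal cortex differed between libraries of the same group. Summed over the 8 tested markers of olfactory bulb neurons, the library labelled control 1 had 258 CPM and the others 57.5 to 58.9 CPM. The 11 tested markers of striatal projection neurons summed to 198 and 185 CPM in control and to 246 and 408 CPM in tau 1 and tau 2. Oligodendrocyte markers, 12 tested, summed to 3208, 1596, 2661 and 5989 CPM. Excitatory cortical neuron markers, 12 tested, were present in each library, with 2506, 2980, 2757 and 2616 CPM, and Slc17a7, the vesicular glutamate transporter that defines them, had 942, 980, 927 and 898 CPM. The part of these differences in the gene results below was not tested, and the values without single libraries stand beside the results they touch.

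**Figure D2:**
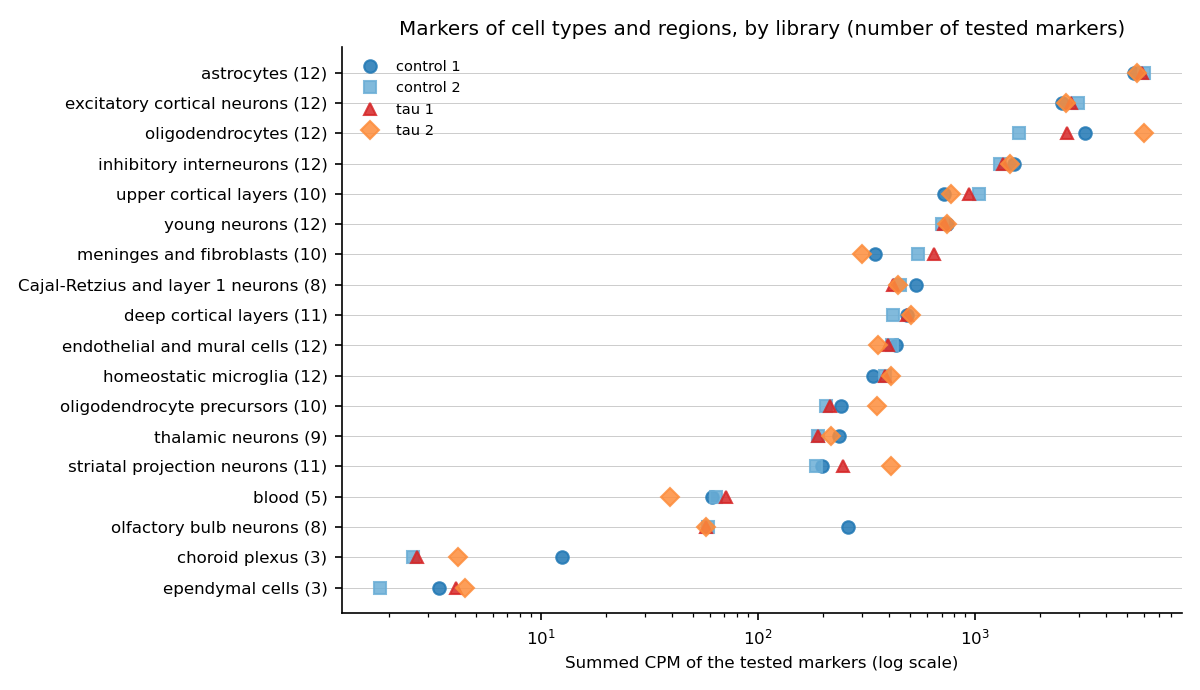
Summed CPM (log scale) of the tested markers of each cell type or region, with 1 symbol per library and the number of tested markers in parentheses. The library labelled control 1 stands apart for olfactory bulb neurons (258 CPM against 57.5 to 58.9 CPM), and tau 2 for oligodendrocytes (5989 CPM) and striatal projection neurons (408 CPM).

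The 12 genes of smallest p that were lower in both tau libraries are given first. Hhipl1, a secreted protein related to a hedgehog-binding protein (chromosome 12, 108306270 to 108330869, mm10), had 31.0, 28.8, 12.5 and 12.1 CPM. The tau libraries lay well below the controls, and the libraries within each group were close. Its log2 fold change was -1.27 ± 0.13 (SE), with an adjusted p of 0.138 by the quasi-likelihood test, 4.15e-08 by DESeq2 and 5.3e-10 by the exact test. Shank1 (chromosome 7, 44310253 to 44360572), which organizes the postsynaptic density of glutamatergic synapses, had 150, 150.2, 85.6 and 95.6 CPM. The controls were nearly equal and the tau libraries differed little, and the log2 fold change of -0.73 ± 0.09 had an adjusted p of 0.381 by the quasi-likelihood test and 1.95e-06 by DESeq2.

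Btg2, an antiproliferative early-response gene (chromosome 1, 134075170 to 134079120), had 51.0, 34.5, 16.7 and 19.8 CPM and a log2 fold change of -1.24 ± 0.19. The controls differed from each other by more than the tau libraries did, without overlap between the groups. Ndnf, a secreted neurotrophic factor and a marker of layer 1 neurons (chromosome 6, 65671590 to 65712326), had 40.1, 38.1, 22.7 and 18.8 CPM and a log2 fold change of -0.90 ± 0.13. Dcx (chromosome X), the doublecortin of migrating immature neurons, had 54.0, 43.9, 28.6 and 22.3 CPM. Scube1, a secreted protein with EGF repeats (chromosome 15), had 78.0, 89.1, 48.2 and 49.9 CPM. In each of these genes the groups stood apart, and DESeq2 called all of them (adjusted p from 4.56e-06 for Btg2 to 0.000186 for Dcx).

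Of the other genes among the 12 with the smallest p, Snhg11, a neuronal transcript that hosts a small nucleolar RNA, had 687, 686, 512 and 482 CPM. Nrxn2, a presynaptic adhesion protein, had 225, 242, 165 and 175 CPM, and its log2 fold change of -0.46 became -0.26 with GC content and length offsets, the only one of the 12 to move by over 1.5 times there. Hspg2, which encodes perlecan of the basement membrane, was low in all libraries, with 8.16, 7.50, 3.31 and 2.94 CPM. Col12a1, a fibril-associated collagen, had 47.9, 38.1, 26.9 and 22.4 CPM. Ccdc85c had 79.5, 88.8, 56.6 and 53.4 CPM. Pcdhgb4, a clustered protocadherin, had 8.32, 9.67, 4.14 and 4.44 CPM and shares 41.5% of its 50-base words with other genes, so its counts are uncertain.

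Folds were mostly smaller among the 12 top-ranked genes that were higher in tau. Bhlhe40, a transcriptional repressor that acts in the circadian clock (chromosome 6, 108660629 to 108666925), had 97.04, 106, 146 and 154 CPM, a log2 fold change of 0.56 ± 0.09 with an adjusted p of 0.532 by the quasi-likelihood test and 0.00121 by DESeq2. Zfp189, a zinc-finger protein, had 14.3, 12.3, 22.2 and 25.3 CPM and a log2 fold change of 0.83 ± 0.14. The tau libraries were close to each other in both genes. Selenop, the selenium carrier protein, had 142, 133, 177 and 199 CPM. Enpp2, which makes lysophosphatidic acid, had 246, 252, 312 and 349 CPM. Trib2, a pseudokinase, had 48.2, 52.5, 67.0 and 83.0 CPM. DESeq2 called these 5, with Drd1 and Mt1 from the same 12, and did not call Gng3, Arl1, Prss35, Gstm1 or Btbd8. The exact test called only Bhlhe40 and Zfp189 of the 12.

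Gng3, a neuronal G protein subunit, had 64.4, 66.3, 93.6 and 86.0 CPM, and Arl1, a small GTPase of the Golgi, 96.0, 100, 129 and 125 CPM. The groups did not overlap in either. Gstm1, a glutathione transferase, had 61.6, 62.0, 82.6 and 88.2 CPM and shares 18.9% of its 50-base words with other genes. Btbd8 is among the 789 symbols found only in the control and tau tables and had 165, 178, 216 and 226 CPM, with 18.3% of its words shared. All 24 of these genes kept their direction when any 1 library was left out, and no log2 fold change of theirs moved by over 1.5 times. The choice of genes without overlap largely fixed the direction, and the choice by smallest p favoured stable folds, so neither is separate support. Without control 2, the library labelled control 1 was the only control. The log2 fold changes were then -1.49 to -0.40 for the lower 12 and 0.41 to 0.73 for the higher 12.

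**Figure D3:**
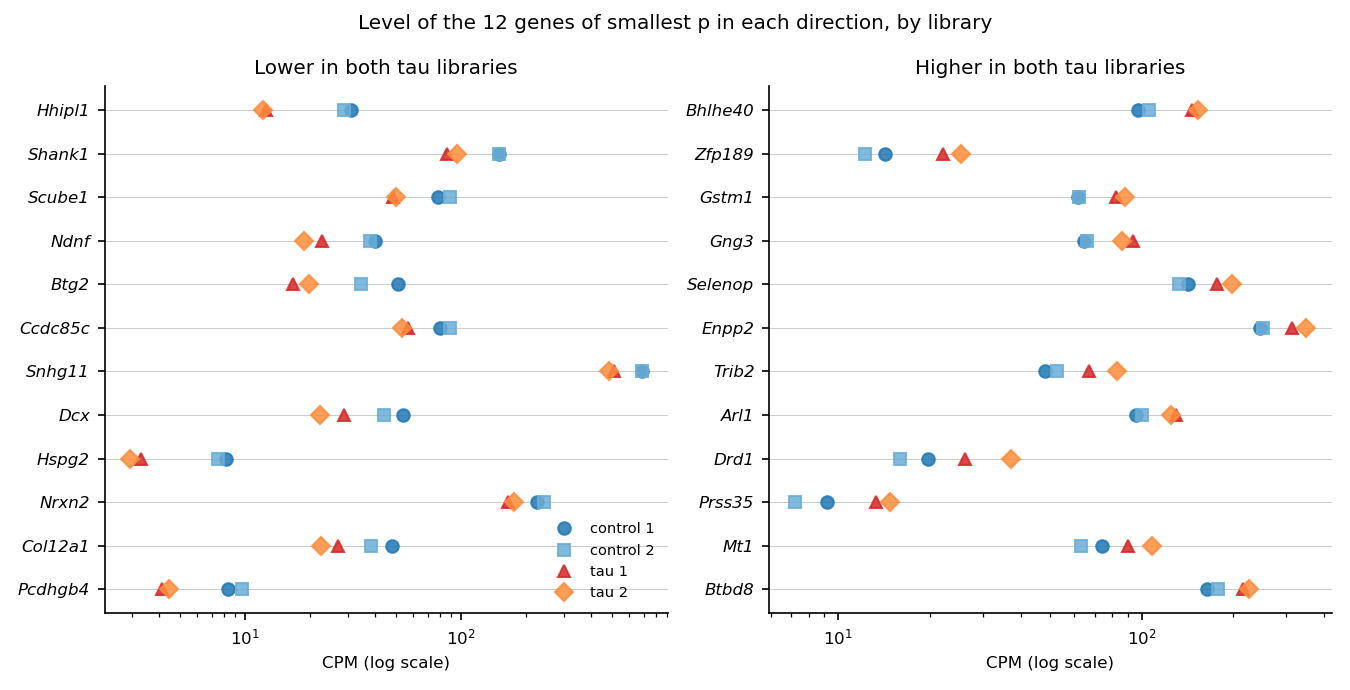
CPM (log scale) in each library for the 12 genes of smallest p that were lower (left) and higher (right) in both tau libraries, smallest p at the top. The 2 control and 2 tau symbols do not overlap in any row, which the choice of these genes required; Hhipl1 shows 28.8 and 31.0 CPM in control against 12.1 and 12.5 CPM in tau.

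The largest folds in both directions rested mostly on 1 library. Among the genes lower in both tau libraries, Doc2g had 17.6, 1.03, 0.591 and 0.866 CPM, Aqp1, a water channel, 10.03, 0.632, 0.473 and 0.577 CPM, and Sp8, a transcription factor of olfactory interneurons, 15.8, 2.33, 2.05 and 2.13 CPM. Their log2 fold changes of -3.71, -3.35 and -2.12 became -0.54, -0.29 and -0.16 without the library labelled control 1. Clca3a1 and Shisa8 behaved in the same way, at -4.26 and -2.68 with and -0.61 and -0.22 without that library. Xlr3b, at 2.63, 4.42, 0 and 0.692 CPM, shares 56.5% of its 50-base words with other genes. Among the genes higher in both tau libraries, Plin4, a lipid droplet protein, had 3.35, 3.75, 7.05 and 22.4 CPM, and its log2 fold change of 1.99 became 1.00 without tau 2. Adora2a and Drd2, receptors of striatal neurons, had 1.59, 1.42, 2.29 and 7.39 CPM and 1.35, 1.26, 2.60 and 5.14 CPM. Their log2 fold changes of 1.57 and 1.49 became 0.61 and 0.995 without tau 2. Ighg2c, an immunoglobulin gene, had 0.12, 3.95, 7.01 and 7.79 CPM, and its log2 fold change of 1.85 became 0.90 without the library labelled control 1. Of the 6 largest higher folds, 4 moved by over 1.5 times without tau 2.

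By groups of genes, synaptic genes had log2 fold changes below 0 more often than above it, in lists chosen for their function. Over all genes tested, 49.5% of log2 fold changes were positive and 50.5% negative, the median was -0.003, both tau libraries lay above both controls in 20.5% of genes and below them in 21.3%. Medians of lists depended on single libraries: when 1 library was left out, 49 of the 55 tested lists had a median that moved by over 1.5 times or changed sign, and 21 changed sign. The 6 others were complement, ionotropic glutamate receptor, lysosome and autophagy, other chromatin modifier, oxidative stress defence, and tubulin and microtubule-associated protein genes. Of the 20 postsynaptic scaffold genes, 17 were negative and 3 positive, and in 10 both tau libraries lay below both controls, with a median of -0.14. Beside Shank1, the inhibitory-synapse adhesion gene Nlgn2 had 129, 166, 94.1 and 104 CPM. Shank3, a relative of Shank1, had 110, 119, 95.1 and 94.9 CPM. Control 2 was the highest library in both, and DESeq2 called Nlgn2 (adjusted p 0.0171). The exact test (adjusted p 0.071) and the quasi-likelihood test (adjusted p 0.546) did not call Nlgn2.

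Of the 15 ionotropic glutamate receptor genes, 12 were negative, and both tau libraries lay below both controls in 7 (median -0.12). Grik5, a kainate receptor subunit, had 99.4, 106, 68.6 and 81.9 CPM, and Grin2b, an NMDA receptor subunit, 1016, 1360, 924 and 935 CPM. In Grin2b control 2 stood apart from the other 3. The 7 metabotropic receptor genes had a median of -0.08 with 5 negative. Grm4, a presynaptic receptor, had 27.9, 24.0, 15.9 and 16.3 CPM and was called by the exact test (adjusted p 0.0422). DESeq2 (adjusted p 0.0693) and the quasi-likelihood test (adjusted p 0.546) did not call it. GABA receptor and GABA handling genes, 18 in all, were positive in 14 with a median of 0.04, and both tau libraries lay above both controls in 5.

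Presynaptic vesicle and active zone genes were negative in 14 of 22 (median -0.04). Bsn, the active zone scaffold bassoon, had 595, 734, 420.5 and 491 CPM, and DESeq2 called it (adjusted p 0.0123). The exact test (adjusted p 0.0888) and the quasi-likelihood test (adjusted p 0.546) did not. Trans-synaptic organizers were negative in 18 of 28 (median -0.06), with 8 below both controls and 5 above. Lrrtm2, a postsynaptic neurexin partner, went the other way from Nrxn2, at 113, 126, 147 and 177 CPM. The presynaptic list had a median of 0.01 and the organizers one of 0.02 without control 2.

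Ion channel genes showed the same tilt. Of 25 sodium and calcium channel genes, 17 were negative and 11 lay below both controls (median -0.17). The members of smallest p were pore subunits of calcium channels. Cacna1g, a T-type channel, had 84.8, 92.8, 63.0 and 65.5 CPM, Cacna1h, another T-type channel, 61.8, 60.7, 46.6 and 43.8 CPM, and Cacna1a, the P/Q-type channel, 133, 158, 101 and 109 CPM. The groups did not overlap in these. Scn1a, a sodium channel gene of interneurons, had 323, 321, 356 and 369 CPM. Of 31 potassium and HCN channel genes, 23 were negative, 11 lay below both controls and 0 above (median -0.13), with Kcnc1, a fast-spiking potassium channel, at 114, 124, 74.7 and 92.7 CPM.

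Genes of membrane-linked cytoskeletal scaffolds (ankyrins, spectrins and plakins) were negative in 10 of 11 (median -0.11). Plec, a large linker of intermediate filaments, had 298.5, 349, 228 and 236 CPM and was called by DESeq2 (adjusted p 0.0148). It was not called by the exact test (adjusted p 0.063) or the quasi-likelihood test (adjusted p 0.546). The log2 fold changes of coding genes with an average log2 CPM of at least 1 went along with GC content and length. By quartiles of GC content from low to high, their median was 0.08, 0.05, 0.02 and -0.05. By quartiles of transcript length from short to long it was 0.08, 0.04, 0.02 and -0.02. Libraries differed in the length trend. From the shortest to the longest quartile, the median deviation from the mean of the 4 libraries went from -0.07 to 0.04 in control 2. It went from 0.05 to -0.02 in tau 1, from 0.03 to 0 in tau 2 and from -0.004 to -0.02 in the library labelled control 1. With offsets per library for GC content and length, the medians became -0.06 for postsynaptic genes, -0.08 for sodium and calcium channels, -0.06 for potassium and HCN channels and -0.02 for the cytoskeletal scaffolds. The split of unadjusted calls also turned, from 751 higher and 1024 lower to 1058 higher and 788 lower, and the median of all genes moved to 0.02. The medians also depended on control 2, without which they were -0.04 for postsynaptic genes, -0.06 for sodium and calcium channels and -0.03 for potassium and HCN channels.

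Genes of protein quality control had positive log2 fold changes more often than negative ones, each of small size. The proteasome degrades ubiquitin-tagged proteins, and 25 of 25 tested subunit genes had positive log2 fold changes between 0.02 and 0.28 (median 0.19). Both tau libraries lay above both controls in 18 of them, against 20.5% of all genes. Psmb1, a core subunit, had 114, 95.7, 131 and 123 CPM, and Psmc5, an ATPase of the cap, 146, 142, 165 and 162 CPM. Proteasome levels were lowest in control 2: its median deviation from the mean of the 4 libraries was -0.16, against -0.01 in the library labelled control 1 and 0.13 and 0.05 in tau 1 and tau 2. Leaving out control 2 brought the median to 0.10.

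Unfolded protein response genes, which handle misfolded protein in the endoplasmic reticulum, were positive in 20 of 21, with 14 above both controls and a median of 0.20. Dnajb9, a co-chaperone of that compartment, had 27.2, 29.8, 38.2 and 40.5 CPM, a log2 fold change of 0.46 ± 0.11. Hspa5, the main chaperone there, had 345, 340.2, 356 and 451 CPM, so that tau 2 alone stood apart. The list median without tau 2 was 0.10. Cytosolic chaperone genes were positive in 16 of 18 (median 0.20, and 0.13 without tau 2), with 12 above both controls. Hsp90aa1 had 596, 511.5, 640.0 and 665 CPM, and Dnaja1 117, 110, 136.5 and 130 CPM.

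Lysosome and autophagy genes were positive in 20 of 25, and both tau libraries lay above both controls in 15 (median 0.13). Lamp1 and Lamp2, the main membrane proteins of lysosomes, had 212.5, 194, 229 and 242 CPM and 89.0, 87.8, 102 and 102.5 CPM. The cathepsin Ctsd had 167, 144, 176 and 191 CPM. Ulk1, a kinase that starts autophagy, lay below both controls at 41.8, 47.0, 36.2 and 38.8 CPM. The list kept a positive median, between 0.09 and 0.17, in each alternative fit.

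Of 23 oxidative stress defence genes, 23 were positive and 15 lay above both controls (median 0.19). Metallothioneins bind zinc and copper, and their promoters are known for metal response elements. Mt1 had 73.8, 63.1, 90.1 and 108 CPM, Mt2 4.14, 4.46, 6.46 and 9.002 CPM, and Mt3, the brain form, 91.1, 91.7, 105 and 115 CPM. Tau 2 was highest and no group overlapped in these 3. Their log2 fold changes were 0.53 ± 0.12, 0.82 ± 0.24 and 0.26 ± 0.09. DESeq2 called Mt1 (adjusted p 0.0499), while the exact test (adjusted p 0.105) and the quasi-likelihood test (adjusted p 0.546) did not. Mt1 and Mt2 are also glucocorticoid-induced genes. The 250 bases before their start sites are shown for the core of that element, TGCACNC or TGCGCNC, searched on both strands and set in capitals.
Mt1 (chr8:94178839-94179088, plus strand): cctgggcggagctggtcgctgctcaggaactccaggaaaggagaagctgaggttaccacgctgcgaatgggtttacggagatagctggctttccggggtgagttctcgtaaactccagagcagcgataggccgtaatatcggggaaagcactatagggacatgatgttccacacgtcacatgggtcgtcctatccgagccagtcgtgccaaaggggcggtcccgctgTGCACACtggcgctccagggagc
Mt2 (chr8:94172368-94172617, plus strand): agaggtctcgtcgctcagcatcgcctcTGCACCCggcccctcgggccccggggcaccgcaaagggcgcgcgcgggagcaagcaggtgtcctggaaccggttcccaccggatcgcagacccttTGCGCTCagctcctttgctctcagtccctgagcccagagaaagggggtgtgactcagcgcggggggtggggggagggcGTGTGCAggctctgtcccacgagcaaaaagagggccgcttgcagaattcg
Sequences are from RefSeq on GRCm38.p6, 5′ to 3′. In these windows Mt2 holds 3 matches, Mt1 holds 1 and Mt3 holds 0. Of 32817 promoters of that length, 21.4% hold at least 1 and 1.26% at least 3. Each window rests on 1 annotated start site, and matches outside it were not counted. The numbers therefore do not compare the whole promoters of these genes. Peroxiredoxin 6 (Prdx6) had 146, 169, 197 and 196 CPM, and the selenoprotein Selenow 167, 205, 221 and 228 CPM.

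Nuclear genes of oxidative phosphorylation were positive in 24 of 25, with 17 above both controls and a median of 0.14. Single members differed little: Ndufa1, an accessory subunit of complex I, had 30.9, 28.3, 36.9 and 42.6 CPM, and Sdha, of complex II, 445, 413, 492.5 and 471 CPM. The list was lowest in control 2, with a median deviation of -0.18, against 0.03 in the library labelled control 1. Its median without control 2 was 0.07. The 13 genes of the mitochondrial genome had 0 counts in each library and were not tested. Cytosolic ribosomal protein genes were positive in 21 of 26 (median 0.10, and 0.05 without tau 1). Rps2 had 3.31, 2.13, 28.4 and 3.12 CPM and Rpl3 7.21, 5.84, 6.26 and 23.3 CPM, each high in 1 tau library, and they share 43.0% and 35.03% of their 50-base words with other genes.

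**Figure D4:**
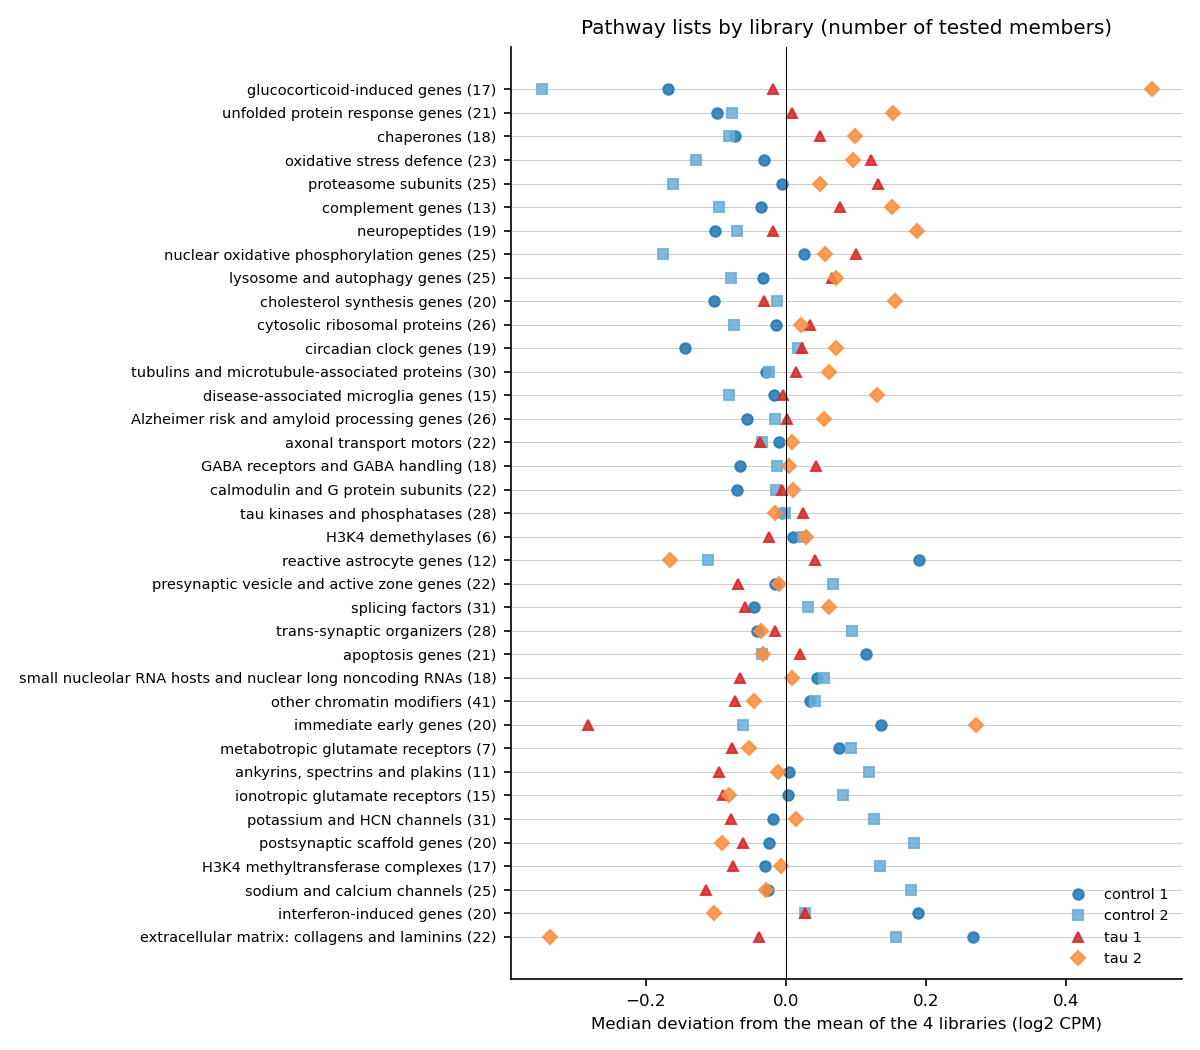
Median deviation of each pathway list's tested members from their mean over the 4 libraries (log2 CPM), 1 symbol per library, lists sorted by median log2 fold change. Proteasome and oxidative phosphorylation genes are lowest in control 2 (-0.16 and -0.18), and glucocorticoid-induced genes are highest in tau 2 (0.52).

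Glucocorticoid-induced genes had the largest median among the pathway lists, 0.43, with 16 of 17 positive and 12 above both controls. Tau 2 carried most of it. Sgk1, a kinase induced by glucocorticoids, had 67.9, 65.2, 75.8 and 208 CPM, and Tsc22d3, a leucine zipper protein, 68.1, 61.1, 81.9 and 138 CPM. Fkbp5, a co-chaperone of the glucocorticoid receptor, had 22.5, 25.2, 29.0 and 35.6 CPM. The list median without tau 2 was 0.18. Each of the 12 oligodendrocyte markers was also highest in tau 2, and their part in the result was not tested.

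Circadian clock genes, which form feedback loops of activators and repressors, were positive in 14 of 19 (median 0.09, and 0.03 without the library labelled control 1). In 9 both tau libraries lay above both controls and in 2 below, and 6 had a positive change at an unadjusted p under 0.05, against 3.75% of all genes. Per2, a repressor of the loop, had 20.6, 32.1, 39.4 and 62.0 CPM, a log2 fold change of 0.93 ± 0.25 in which both the controls and the tau libraries differed among themselves. Cry1, another repressor, had 16.9, 15.1, 21.9 and 21.3 CPM (0.44 ± 0.13). Nr1d2, a nuclear receptor of the loop, had 157, 172, 195 and 226 CPM, Per1 39.7, 41.5, 44.9 and 57.3 CPM, and Ciart, a repressor of the clock activators, 12.5, 12.5, 14.4 and 19.6 CPM. Tau 2 was the highest library in Per2, Nr1d2, Per1 and Ciart, but not in Cry1. Bhlhe40, above, belongs to the same list. Nr1d1, the closest relative of Nr1d2, had 38.7, 44.6, 34.98 and 36.3 CPM. The labels give no time of day for the tissue.

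The clock activators bind the palindrome CACGTG. The 250 bases before the start sites of 3 of these genes are shown because they hold that motif, in capitals. The palindrome reads the same on both strands.
Ciart (chr3:95882229-95882478, minus strand): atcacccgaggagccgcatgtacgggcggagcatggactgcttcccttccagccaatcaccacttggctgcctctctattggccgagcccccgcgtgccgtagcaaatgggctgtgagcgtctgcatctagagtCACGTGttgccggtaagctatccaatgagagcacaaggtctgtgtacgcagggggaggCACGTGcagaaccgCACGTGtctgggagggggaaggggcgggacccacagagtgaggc
Cry1 (chr10:85185055-85185304, minus strand): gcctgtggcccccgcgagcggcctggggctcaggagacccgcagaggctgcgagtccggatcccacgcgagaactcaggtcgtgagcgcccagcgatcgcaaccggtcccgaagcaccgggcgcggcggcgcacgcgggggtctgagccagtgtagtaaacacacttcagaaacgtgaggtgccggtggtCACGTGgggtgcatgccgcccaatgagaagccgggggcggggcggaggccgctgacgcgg
Per1 (chr11:69098699-69098948, plus strand): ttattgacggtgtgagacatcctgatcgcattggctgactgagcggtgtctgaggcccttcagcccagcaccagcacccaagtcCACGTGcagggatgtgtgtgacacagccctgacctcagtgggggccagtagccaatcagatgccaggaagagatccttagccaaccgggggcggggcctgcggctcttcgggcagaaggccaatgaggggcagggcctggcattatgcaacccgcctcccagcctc
Of the 19 listed clock genes 17 had a promoter in the RefSeq table, Bhlhe40 and Per2 not among them, and 5 held the motif. These were the 3 shown, Tef, with 1 copy at each of 2 start sites, and Bhlhe41, with 1 copy. Nr1d1 and Nr1d2 held 0. Whether the motif went along with the fold changes was not tested. Ciart held 3 copies. Of all 32817 promoters of that length, 6.02% held the motif and 0.0609% held at least 3. Per1 has another start site whose window held 0.

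Immediate early genes, which neuronal activity induces within minutes, had no common direction, with 9 positive and 11 negative (median -0.07). Beside Btg2, Ier2 had 9.56, 7.34, 3.55 and 6.58 CPM and Npas4, an activity-dependent transcription factor, 39.6, 17.9, 14.0 and 20.3 CPM. Nr4a3, an orphan nuclear receptor, was higher in tau at 23.1, 20.8, 28.4 and 41.7 CPM. The tau libraries lay on opposite sides of the others for the list as a whole, with median deviations of -0.28 in tau 1 and 0.27 in tau 2, against -0.06 in control 2 and 0.14 in the library labelled control 1.

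Extracellular matrix genes had the most negative median of the pathway lists, -0.41. Of 22 collagen, laminin and related genes, 20 were negative, 12 lay below both controls and 0 above, and 8 were lower at an unadjusted p under 0.05. Of all genes tested, 21.3% lay below both controls and 5.11% were lower at that unadjusted p. Besides Hspg2 and Col12a1, Col6a1 had 56.5, 61.7, 43.2 and 39.9 CPM, Col4a2, a basement membrane collagen of vessels, 44.4, 38.3, 32.3 and 28.7 CPM, and Lama5, a laminin chain, 12.98, 9.32, 6.54 and 6.58 CPM. Tau 2 was the lowest library for the list (median deviation -0.34), and without it the median was -0.17. With GC content and length offsets it was -0.30. Markers of endothelial and mural cells were negative in 9 of 12 with 5 below both controls (median -0.17), and their sum was 432, 415, 398 and 358 CPM. Their median was -0.07 without tau 2, -0.30 without tau 1 and -0.04 without both the library labelled control 1 and tau 2. Cldn5, the tight junction protein of brain vessels (chromosome 16, 18776847 to 18778262), had 26.4, 18.7, 12.6 and 10.4 CPM, a log2 fold change of -0.96 ± 0.20 that DESeq2 and the exact test called (adjusted p 0.0148 and 0.0224). Flt1 and Slco1a4, defining markers of the same cells, had 48.0, 47.1, 46.8 and 36.0 CPM and 62.6, 63.2, 63.0 and 48.4 CPM, so that only tau 2 was lower. Markers of meninges and fibroblasts summed to 346, 546, 644 and 300.4 CPM, with 4 of 10 positive and a median of -0.20, lowest in tau 2 and the library labelled control 1. The median of the latter list was 0.25 without control 2, 0.15 without tau 2 and -0.62 without tau 1. The part of cell content in the matrix result was not tested.

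Microglial and astrocyte genes, which are studied in tau mice as signs of gliosis, differed little as lists. Markers of homeostatic microglia were positive in 9 of 12 (median 0.19), summing to 338, 384, 385 and 408 CPM. The median was 0.09 without the library labelled control 1, and 0.01 without it and tau 2 in a fit of all 6 libraries. Disease-associated microglia genes were positive in 8 of 15 (median 0.08). Of these, Itgax had 0.557, 0.553, 1.18 and 0.692 CPM, Cst7 and Clec7a were too low to test with at most 12 counts in a library, and Apoe had 1029, 878, 918 and 867 CPM. Complement genes were positive in 11 of 13 (median 0.17), of which only C1qb lay above both controls, at 17.8, 15.2, 21.1 and 22.3 CPM. Its partners C1qa and C1qc overlapped between the groups.

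Reactive astrocyte genes were positive in 6 of 12 (median -0.01). Gfap, the intermediate filament of reactive astrocytes, had 60.6, 49.9, 66.5 and 113 CPM, a log2 fold change of 0.69 ± 0.22 with an adjusted p of 0.546 by the quasi-likelihood test. Tau 2 held the high value, and without it the log2 fold change was 0.28. Vim had 24.0, 21.9, 27.6 and 28.0 CPM, and Serpina3n overlapped between the groups at 16.6, 10.5, 13.2 and 15.5 CPM. General astrocyte markers were positive in 7 of 12 (median 0.03). Interferon-induced genes were negative in 12 of 20 (median -0.19), with 9 below both controls, and their median was 0.01 when the library labelled control 1 and tau 2 were both left out of a fit of all 6 libraries. Ifit1 had 4.62, 5.17, 3.27 and 2.65 CPM.

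Genes that act on tau itself had small differences. Tau kinases and phosphatases were positive in 16 of 28 (median 0.02), with 8 above both controls and 6 below. Cdk5r2, an activator of the tau kinase CDK5, had 52.3, 66.0, 43.2 and 45.0 CPM, Mark4, a kinase of the microtubule-binding repeats, 42.4, 48.6, 35.7 and 37.3 CPM, and Ppp3ca, the catalytic subunit of calcineurin, 1105, 1277, 1428 and 1353 CPM. Tubulins and microtubule-associated proteins were positive in 23 of 30 (median 0.08). Map1a, a neuronal microtubule-associated protein (chromosome 2, 121289600 to 121310832), was an exception at 1011, 1071, 700.1 and 808 CPM, a log2 fold change of -0.47 ± 0.09 that DESeq2 called (adjusted p 0.0111). The exact test (adjusted p 0.0886) and the quasi-likelihood test (adjusted p 0.546) did not call Map1a. Nefl, a neurofilament subunit, had 374, 397, 428.5 and 476 CPM. Axonal transport motors were positive in 13 of 22 (median 0.04), and Alzheimer risk and amyloid processing genes in 15 of 26 (median 0.05). Of the latter, Clu, the lipoprotein clusterin, had 448, 476, 545 and 553 CPM, and Picalm, an endocytic adaptor, 189, 188, 207.5 and 244 CPM.

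Chromatin genes are of interest because the series also used an inhibitor of WDR5, a shared core subunit of H3K4 methyltransferases, which mark active promoters. Wdr5 itself had 26.5, 27.9, 31.5 and 29.9 CPM (log2 fold change 0.18 ± 0.11). Of 17 genes of those complexes, 10 were negative, with 5 below both controls and 5 above (median -0.15). That median was -0.06 without control 2, -0.02 without tau 1 and -0.05 with GC content and length offsets. Kmt2d, a catalytic subunit (chromosome 15, 98831669 to 98871204), had 108, 135, 72.7 and 83.0 CPM, a log2 fold change of -0.65 ± 0.13 that DESeq2 and the exact test called (adjusted p 0.00494 and 0.0224). Kmt2b, a related enzyme, had 35.5, 30.1, 23.2 and 23.1 CPM. In the core subunits Wdr5, Rbbp5, Ash2l and Dpy30 both tau libraries lay above both controls, with log2 fold changes of 0.18, 0.10, 0.13 and 0.18. They are among the 5 genes of the list that lay above, against 20.5% of all genes. Rbbp5, Ash2l and Dpy30 were named for their role after their values were seen. The 6 H3K4 demethylase genes had a median of 0.01 with 4 positive. Other chromatin modifiers were negative in 29 of 41, with 17 below both controls and 2 above (median -0.07, and -0.003 with GC content and length offsets). Arid1a, of the BAF remodelling complex, had 71.6, 84.6, 56.5 and 60.5 CPM.

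**Figure D5:**
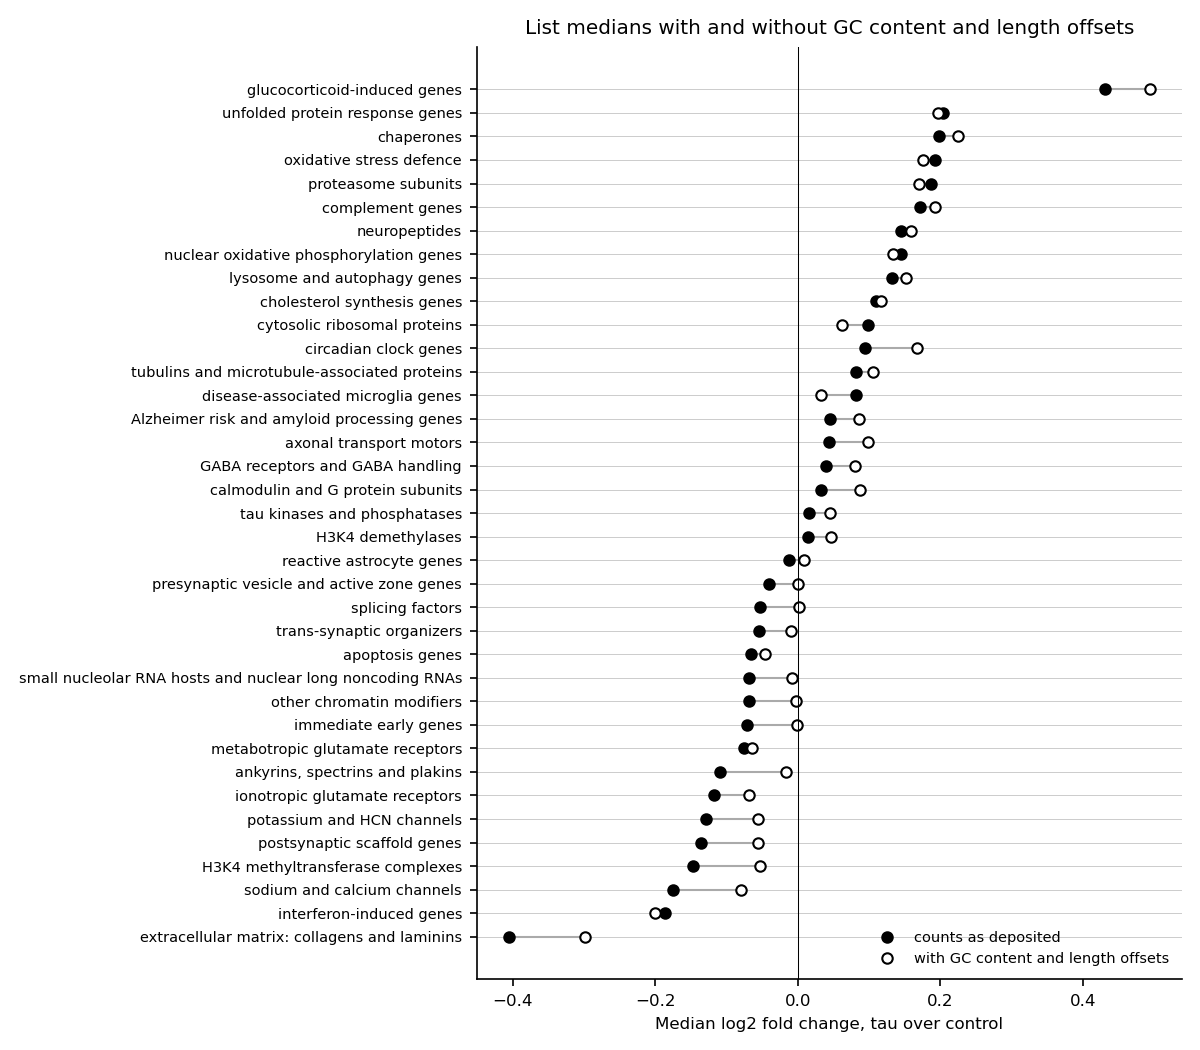
Median log2 fold change of each pathway list from the counts as deposited (filled circles) and with offsets per library for GC content and transcript length (open circles). Sodium and calcium channels (-0.17 to -0.08) and postsynaptic genes (-0.14 to -0.06) lie nearer to 0 with offsets, GABA genes (0.04 to 0.08) and H3K4 demethylases (0.01 to 0.05) farther from it, while proteasome (0.19 and 0.17) and unfolded protein response genes (0.20 and 0.20) stay in place.

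The other pathway lists had medians between -0.07 and 0.14. Both tau libraries lay above and below both controls in 8 and 0 cholesterol synthesis genes and in 8 and 4 calmodulin and G protein subunit genes. The numbers were 5 and 1 for neuropeptides, 5 and 4 for apoptosis genes and 4 and 9 for splicing factors. They were 2 and 6 for small nucleolar RNA hosts with nuclear long noncoding RNAs. Of all genes tested, 20.5% lay above and 21.3% below. Splicing factors were negative in 18 of 31 (median -0.05), apoptosis genes in 13 of 21 (median -0.07), and hosts of small nucleolar RNAs with nuclear long noncoding RNAs in 11 of 18 (median -0.07), where Meg3, a maternally expressed long RNA, had 1004, 1160.0, 846 and 859 CPM. Calmodulin and G protein subunit genes were positive in 12 of 22 (median 0.03), with Calm2 at 1173, 1262, 1539 and 1502 CPM. Cholesterol synthesis genes were positive in 15 of 20 (median 0.11, and 0.06 without tau 2), with Fdft1, which makes squalene, at 83.3, 82.8, 99.1 and 113 CPM. Neuropeptide genes were positive in 14 of 19 (median 0.14, and 0.04 without tau 2). Of these, the interneuron peptides Sst and Vip had 78.6, 93.5, 103 and 132 CPM and 37.6, 43.8, 51.7 and 52.3 CPM.

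Among the marker lists, striatal markers were positive in 11 of 11 (median 0.82) and oligodendrocyte markers in 12 of 12 (median 0.85), which became 0.56 and 0.17 without tau 2. Both tau libraries lay above both controls in 10 striatal markers and 1 oligodendrocyte marker, against 20.5% of all genes. For striatal markers the median difference of tau 1 was 0.50 from the library labelled control 1 and 0.48 from control 2. Drd1, a dopamine receptor, had 19.7, 16.0, 26.2 and 37.2 CPM, and Mbp, a myelin protein, 1076, 540.3, 910 and 2017 CPM. The 2 control libraries differed from each other in Mbp about as much as tau 1 and tau 2 did. Olfactory bulb markers were negative in 7 of 8 (median -2.83, and 0.15 without the library labelled control 1), and young neuron markers in 9 of 12 (median -0.48, and 0.03 without it). Dcx, in that last list, kept its direction without that library. Upper cortical layer markers had 3 of 10 positive (median -0.19), deep layer markers 8 of 11 (0.11), excitatory cortical neuron markers 5 of 12 (-0.01), inhibitory interneuron markers 7 of 12 (0.06), and layer 1 neuron markers 3 of 8 (-0.11). The upper layer median was 0.17 without control 2 and 0.03 without tau 2, and the deep layer median 0.30 without the library labelled control 1 and 0.03 without control 2. Oligodendrocyte precursor markers had 6 of 10 positive (0.15), thalamic neuron markers 5 of 9 (0.07), and blood markers 2 of 5 (-0.22). Without tau 2 the precursor median was -0.22 and the blood median 0.13. Choroid plexus and ependymal markers were nearly absent, with 3 tested each, at medians of 0.23 and 0.70 and sums of at most 12.5 CPM in a library.

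Single libraries also differed from the other 3 in single genes. Over the 14616 genes with an average log2 CPM of at least 1, the library labelled control 1 was more than 2-fold above the other 3 in 55 and below in 16. Tau 2 was above in 26 and below in 37, control 2 in 2 and 6, and tau 1 in 9 and 18. Genes counted in 1 library only could fail the filter on counts. Ddx3y and Eomes, high in the library labelled control 1 alone, are not in these numbers. In the library labelled control 1, Cdhr1, a cadherin of olfactory mitral cells, had 57.5 CPM against 2.42 to 4.29 CPM elsewhere, and Dnah6 had 1.31 CPM against 11.3 to 13.5 CPM. In tau 1, Baiap2l1 had 12.5 CPM against 0.597 to 0.947 CPM elsewhere. Those values describe the libraries and were not tested.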

How the data were processed

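Per the labels' protocols, ribosomal RNA was depleted, strand-specific libraries were sequenced, Cutadapt removed adapters, and TopHat2 aligned the reads to RefSeq mRNAs. Named in the submitters' processing notes are also SAMtools, featureCounts, edgeR and the build mm10, without versions; no source states the strand setting or how multiply aligned reads were counted. Each library has 1 deposited table of raw counts by gene symbol. Low counts were more often even than odd: 64.3% to 66.7% of counts from 1 to 20 were even in these 4 libraries, so low counts may not be independent reads.

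The 4 libraries were fitted with edgeR 4.0.16 after filterByExpr at a minimum count of 10 and TMM scaling (glmQLFit and glmQLFTest, two-sided, 2 residual degrees of freedom) in R 4.3.3, with Benjamini-Hochberg adjustment over 20030 genes. Comparison fits used DESeq2 1.42.0 and limma 3.58.1. The code was tested on simulated data. Positions, GC content and lengths came from GENCODE M21 on mm10, which matched 19896 tested genes. Named genes were the 12 of smallest p and 6 of largest fold in each direction among genes averaging 1 log2 CPM or more whose groups did not overlap, passing over predicted genes; up to 3 members of smallest p of each list; genes in which 1 library stands apart; and Prnp, Mapt, Xist, Ddx3y, Sgk1 and Wdr5. Some further list members are named for their role, chosen after their values were seen, as were the fits on single-copy coding genes and without the library labelled control 1 and tau 2. The 56 lists, their members and these rules were chosen with earlier results of these data known. Levels rest on 17690811 to 25685236 counts per library, at which 3 counts are 0.118 to 0.173 CPM; counts carry no molecular identifiers, so this covers counting error only. Some list members are not reported here.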

Additional observations from a re-analysis of the deposited data

How the results depend on the processing

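The number of genes called was 0 with the quasi-likelihood test, with median ratio scaling, no filter, a stricter filter, 6 libraries on shared symbols, X and Y genes left out, GC content and length offsets, the legacy option, limma-voom and single-copy coding genes only. It was 33 with DESeq2 and 34 with the exact test. Leaving out 1 library gave 0 to 99 calls: 99 without control 2 (14 higher, 85 lower), 1 without tau 1, and 0 without tau 2 or the library labelled control 1. Without control 2 the control group is the library labelled control 1 alone, and its spread is taken from the tau libraries; 79 of the 99 are in the full comparison and 37 of those overlap between the groups there. Without both the library labelled control 1 and tau 2, in a fit of the 6 libraries chosen after seeing the data, 130 genes were called (46 higher, 84 lower), with 1 library left in each group and the spread taken from the treated libraries. With the replicate block, which takes the title numbers as pairs, 0 genes were called and 1885 had an unadjusted p under 0.05. Over 14616 genes the difference within control correlated with that within tau at 0.027. With 1 such difference per group, this cannot decide whether the numbers pair the libraries. Of 209 named genes 33 changed sign in some fit; among them Xist was called there, at -0.77 without the library labelled control 1 and tau 2. Of 55 tested lists 29 kept the sign of their median in each fit. The cause of these changes was not tested. With 2 libraries a group, small changes are not detectable, and tau 2 is the shallowest.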
